A study of Mus musculus with 8 samples.

Results

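The comparison described here sets lesioned mice lacking microglia-derived Il6 against intact floxed mice, so it changes lesion and genotype together. Its members are the channels whose labelled sample type is cryolesioned and microglia-derived Il6 deficient, and those labelled control floxed, with 4 animals in each group, or 8 of the 16 animals of the series. Total RNA of the right fronto-parietal cortex was hybridised in pairs of different animals on 8 Agilent 2-colour arrays that formed a closed loop over 4 groups. The other groups were cryolesioned floxed and control microglia-derived Il6 deficient mice. A cryolesion is a focal injury made by freezing the cortical surface, and the cortex on the injured side was dissected. Of the 8 arrays, 2 held both groups of the comparison, with dyes swapped between them. Direct array 1 paired floxed control 3 (Cy5) with lesioned Il6-deficient animal 3 (Cy3), and direct array 2 paired animals 4 of both groups with the dyes reversed. Animals 1 and 2 of each group lay on other arrays and were compared through the other groups, which gave the indirect estimate. In the fit of all 8 arrays the direct estimate had a weight of 75% and the indirect estimate 25%. What all 16 mice share beyond the labels' word floxed, the Cre driver that removed Il6 from microglia, any inducing agent, the age of the animals and the time after the lesion are not given in the sources used here. The labels number the animals 1 to 4 within a group. The p-values measure the scatter of the 8 array ratios, over all 4 groups, around the fit. They do not measure the spread in level among the 4 animals of a group.

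Interleukin-6 is a cytokine released at sites of injury by microglia, astrocytes, endothelial cells and infiltrating leukocytes. It binds IL-6 receptor (Il6ra) and signals through the shared receptor gp130 (Il6st), which activates the transcription factor STAT3. Oncostatin M, LIF and CNTF use the same gp130, so STAT3 can be driven without IL-6. In injured cortex STAT3 is best known for its role in reactive astrocytes, which raise the intermediate filament proteins GFAP and vimentin and wall off the lesion.

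STAT3 binds sites of the form TTCNNNGAA, in which N is any base. The outer bases TTC and GAA read alike on both strands, and the middle bases need not. The pattern was looked for in the 250 bases before the start of each gene, in RefSeq sequences of build GRCm38.p6, because Stat3 and its feedback gene Socs3 were called higher in the comparison. It stood in 20 of 185 genes called higher (10.8%) and in 5 of 68 called lower (7.35%), beside 974 of 13301 named genes tested (7.32%) and 2197 of 27025 genes in the whole promoter table (8.13%). The listed genes called higher that held it included these 9: Fcgr1, Oas1a, Tnfrsf1a, Emp1, Mcm5, Socs3, Tgm1, Psmb8 and Fas. Which of the genes called lower held it is not given here, so the 9 do not set the directions apart. The stretches of the STAT3 feedback inhibitor Socs3, of Tgm1 and Emp1, which hold 2 matches each, and of the Fc receptor gene Fcgr1 are printed on the strand of the gene, 5′ to 3′, with the matching bases in capitals.
Socs3 (chr11:117969500-117969532, minus strand, match 154 bases before the start): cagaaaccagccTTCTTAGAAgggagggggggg
Tgm1 (chr14:55713645-55713677, minus strand, match 173 bases before the start): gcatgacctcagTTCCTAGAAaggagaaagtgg
Tgm1 (chr14:55713536-55713568, minus strand, match 64 bases before the start): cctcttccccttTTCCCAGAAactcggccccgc
Emp1 (chr6:135362799-135362831, plus strand, match 120 bases before the start): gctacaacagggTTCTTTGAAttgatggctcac
Emp1 (chr6:135362897-135362929, plus strand, match 22 bases before the start): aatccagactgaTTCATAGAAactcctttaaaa
Fcgr1 (chr3:96294058-96294090, minus strand, match 109 bases before the start): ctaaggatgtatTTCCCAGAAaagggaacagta
A match is a run of letters, and no binding was measured. All 9 were taken from the genes called higher, so each was picked after its value was seen.

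The share of probes well above background ranged from 61.0% to 67.4% over the channels, and the number of arrays limits the precision. All 23 excitatory and pan-neuronal genes tested were well above background in each of the 8 animals, as were all 20 astrocyte and all 20 microglia genes, so the samples carried the markers of brain tissue. These genes are not particular to cortex, and all 12 striatal markers were also well above background in every floxed control. Sex-linked transcripts were unevenly spread over the groups. Xist was well above background in floxed controls 1, 3 and 4 and in 0 of 4 lesioned Il6-deficient animals, whereas Y-linked Ddx3y and Eif2s3y were well above background in floxed control 2 and in all 4 lesioned animals. Both direct arrays therefore set an Xist-positive control against an Xist-negative lesioned animal, and beyond floxed control 2 group and sex-linked transcripts cannot be told apart. The samples were bulk tissue, so fewer cells of a type and less RNA per cell cannot be told apart.

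Il6 itself lay at the detection limit. Its brighter probe read 5.86, 5.93, 6.003 and 5.89 (log2 channel intensity) in floxed controls 1 to 4 and 6.14, 6.21, 6.01 and 6.15 in lesioned Il6-deficient animals 1 to 4. The lesioned values of this probe lay above those of the controls, but 0 of 4 animals of either group were well above background. For it, direct array 1 gave a ratio of 0.01 and direct array 2 of 0.26 (log2). The other Il6 probe overlapped, at 5.93 to 5.99 in controls and 5.97 to 6.11 in lesioned animals, none well above background. No fold or test is given between groups that were both below background. Il6 did not reach the filter of 4 channels well above background and is not among the features tested, and whether its probes lie in the deleted stretch was not checked.

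Of 29362 features tested (16852 named genes and 12510 unnamed probes), 302 were called higher in lesioned Il6-deficient animals than in floxed controls and 98 lower. These are 1.03% and 0.334% of all features, and 1.36% for both directions together, by limma at a Benjamini-Hochberg adjusted p under 0.05. At least a 2-fold change was seen in 150 of those called higher and 19 of those called lower, while the median log2 change of all features was -0.0026. The 4 lesioned animals all lay above the 4 controls in level for 6.49% of features and all below for 4.7%. Among the calls, 274 of 302 higher and 64 of 98 lower features had levels that did not overlap. Median centring in place of the intensity-dependent (loess) normalization gave 102 higher and 62 lower. With sex, read from whether Xist was well above background, as a covariate, 114 features were called higher and 61 lower. Of these 175, 123 were among the 400.

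**Figure D1:**
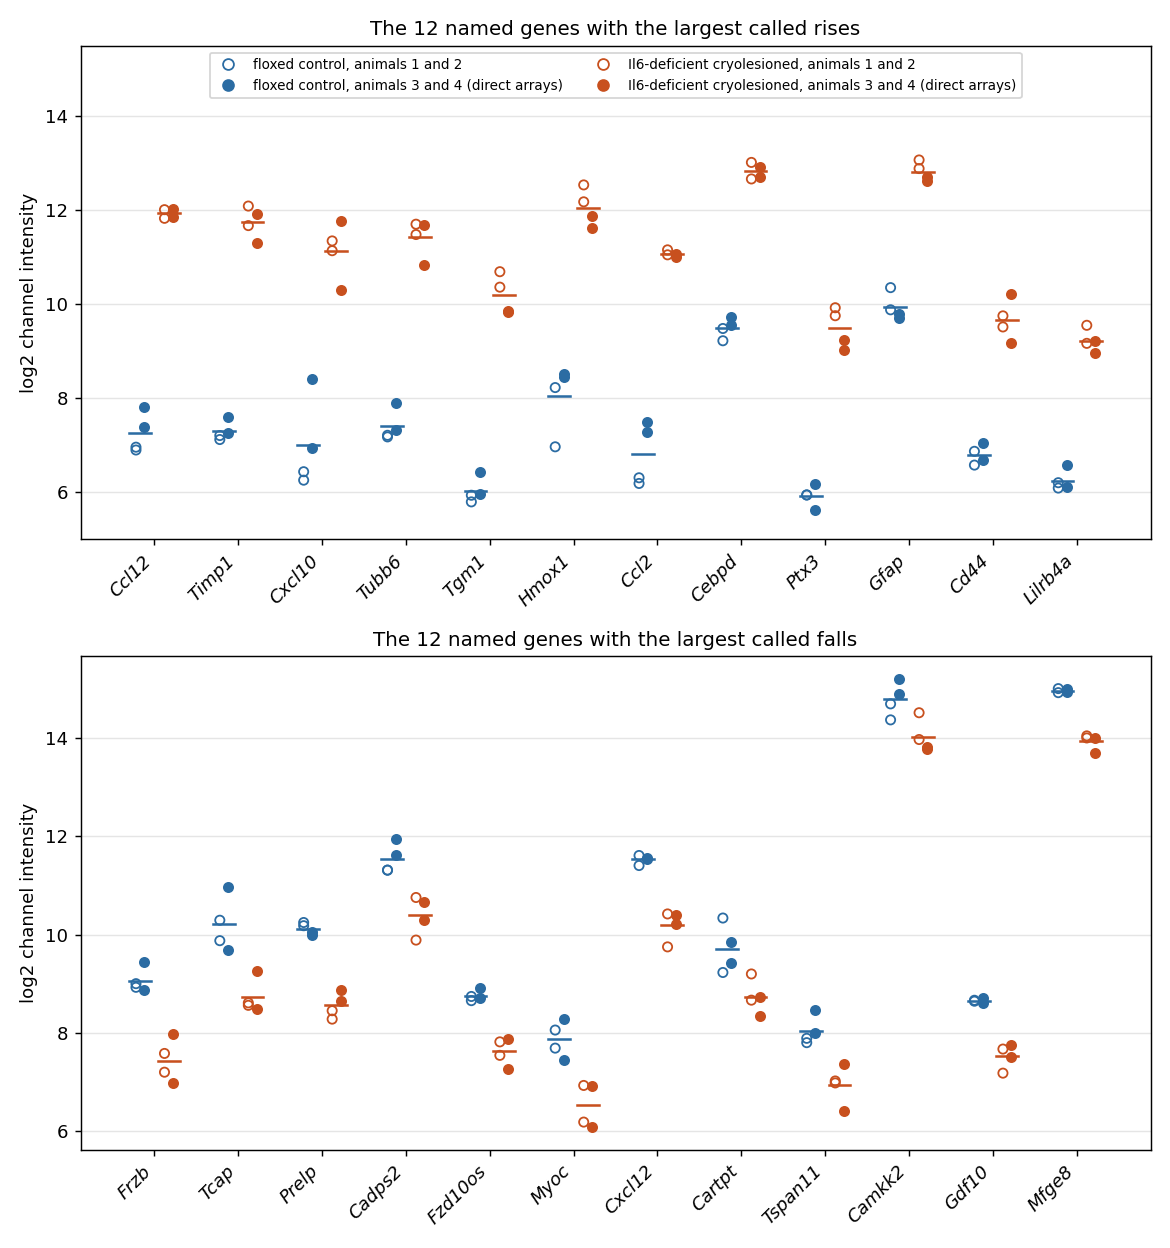
Log2 channel intensity (vertical axis) of the 12 named genes with the largest called rises (top) and falls (bottom) in floxed controls (blue) and lesioned Il6-deficient animals (orange). Open points are animals 1 and 2, filled points are animals 3 and 4 of the direct arrays, and the line is the mean of 4 animals; the groups overlap only for Camkk2 among these 24 genes.

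The CCR2 ligands Ccl12 and Ccl2, which attract monocytes, had the smallest standard errors of the 12 largest rises. Ccl12 read 6.96, 6.90, 7.82 and 7.38 in floxed controls 1 to 4 and 11.83, 12.02, 11.86 and 12.04 in lesioned Il6-deficient animals 1 to 4. The 4 lesioned animals lay within a narrow band far above the controls, and the change was 4.34 ± 0.14 (log2, SE; limma adjusted p = 0.000126). Ccl2 read 6.31, 6.19, 7.49 and 7.29 in the controls and 11.05, 11.16, 11.002 and 11.08 in the lesioned animals. Controls 3 and 4, which shared an array with a lesioned animal, were the higher controls for both genes. Ccl2 changed by 3.67 ± 0.11 with 3.51 and 3.79 on direct arrays 1 and 2, and Ccl7, another ligand of CCR2, rose by 2.94 ± 0.10. Ccl2 was well above background in 3 of 4 controls and Ccl7 in 1 of 4, so the sizes rest in part on control values near background.

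Cxcl10, an interferon-induced T cell attractant, had the largest standard error of the 12 largest rises. It read 6.26, 6.44, 8.40 and 6.95 in the controls and 11.14, 11.35, 10.31 and 11.77 in the lesioned animals. The groups did not overlap, yet direct array 1 gave 1.91, direct array 2 gave 4.82 and the indirect estimate was 6.53. The combined change of 4.15 ± 0.67 had an adjusted p of 0.0439 (0.0638 with sex as a covariate) and was called in 3 of 8 fits with 1 array left out. Ccl4 rose by 3.04 ± 0.32, and the neutrophil attractant Cxcl1, not well above background in any control, was at least 4.49-fold higher. Ptx3, Hcar2, Mmp3 and Msr1 were the other named rises with no control well above background, listed after their values were seen. Of 20 chemokine and receptor genes tested, 9 were called higher and 2 lower, with a median of 0.74.

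The fallen chemokine gene was Cxcl12, which retains CXCR4-bearing cells in normal brain. It read 11.40, 11.60, 11.53 and 11.56 in the controls and 9.75, 10.42, 10.40 and 10.22 in the lesioned animals. Its groups stood apart by more than the spread within either, and the change was -1.22 ± 0.12 (adjusted p = 0.00891). The other called fall, of the fractalkine receptor Cx3cr1, is described with microglia.

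Acute-phase and injury-secreted proteins had the highest median of the 37 gene lists. Of 15 tested, 8 were called higher and 0 lower, and the median was 1.74. The lists were chosen with earlier results of these data known, so the counts and medians of all lists are descriptions and not tests. Of all features 1.03% were called higher and 0.334% lower, and 14512 of 29362 were above zero. Timp1, an inhibitor of metalloproteinases, read 7.21, 7.12, 7.26 and 7.60 in the controls and 12.09, 11.68, 11.31 and 11.93 in the lesioned animals, a change of 4.31 ± 0.22. The groups were far apart, and Timp1 was called in each of the 8 fits with 1 array left out. Pentraxin Ptx3, a soluble pattern recognition protein, read 5.94, 5.94, 5.63 and 6.17 in controls, none well above background, and 9.93, 9.76, 9.04 and 9.25 in lesioned animals, which was at least 11.3-fold. Serpina3n, a protease inhibitor and marker of reactive astrocytes, rose by 2.91 ± 0.25, Saa3 by 2.23 ± 0.20 and complement C4b by 1.74 ± 0.15. Among controls, Saa3 was well above background in controls 3 and 4 alone.

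Lcn2, an acute-phase protein that binds bacterial iron carriers, differed in level between animals on the direct arrays and animals on the others. It read 6.97 and 6.59 in floxed controls 1 and 2 but 8.22 and 8.15 in controls 3 and 4. In lesioned animals 1 and 2 it read 12.35 and 12.27, against 10.57 and 10.41 in animals 3 and 4. The groups did not overlap, and they lay closer together in animals 3 and 4 than in animals 1 and 2. The within-array ratios of 2.34 and 2.27 and the indirect estimate of 2.15 were alike. The fitted change was 2.27 ± 0.09 (limma adjusted p = 0.000349), whereas the mean levels, 7.48 in controls and 11.40 in lesioned animals, differed by 3.92, so the size of the change depended on how it was read.

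In the IL-6 family list, 5 of 25 tested members were called higher and 0 lower, with a median of 0.49. The 5 were Stat3, Socs3, Cebpd, Bcl3 and Osmr, and the IL-6 receptor genes were not among them. Stat3 read 10.39, 10.48, 10.57 and 10.45 in controls and 12.09, 12.19, 11.64 and 11.93 in lesioned animals, a change of 1.46 ± 0.17 (adjusted p = 0.0170). The groups did not overlap, and animal 3 was the lowest of the lesioned. Its feedback inhibitor Socs3, named after its value was seen, changed by 1.86 ± 0.22, with 1.57 and 1.87 on the direct arrays.

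Osmr, which pairs with gp130 as the oncostatin M receptor, read 7.46, 7.36, 7.25 and 7.68 in controls and 10.20, 10.32, 9.70 and 10.02 in lesioned animals. Controls and lesioned animals were clearly separate, and Osmr rose by 2.59 ± 0.18 (adjusted p = 0.00353). The transcription factor Cebpd, a STAT3 target, rose by 3.37 ± 0.21, and Bcl3, a nuclear IκB protein, by 2.77 ± 0.31. Il6ra read 9.02 to 9.68 in controls and 9.22 to 10.16 in lesioned animals, and Il6st 9.20 to 9.53 and 9.42 to 9.78. Both overlapped, with changes of 0.23 ± 0.23 and 0.30 ± 0.15 (adjusted p = 0.645 and 0.355), and for each the signs of the direct arrays were opposite. The gp130 cytokines Osm, Lif, Cntf and Il11 were at 0.52, 0.08, 0.46 and 0.92, none of them called, and are named after their values were seen.

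With sex as a covariate, the changes of Stat3, Osmr, Bcl3 and Cebpd were 1.65, 2.79, 3.22 and 3.32, all past the threshold. Stat3, Socs3 and Bcl3 were each called in 4 of 8 fits with 1 array left out, Osmr in 7 and Cebpd in 8.

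Of 26 reactive astrocyte genes tested, 15 were called higher and 0 lower, all 26 were above zero, and the median was 1.30. Gfap, the astrocyte intermediate filament, read 9.88, 10.36, 9.72 and 9.80 in controls and 13.07, 12.89, 12.62 and 12.72 in lesioned animals. No control came within 2-fold of a lesioned animal, and the change was 3.14 ± 0.22 (adjusted p = 0.00375). Vim, its filament partner, rose by 2.45 ± 0.18 and the hyaluronan receptor Cd44 by 3.08 ± 0.26. The tubulin Tubb6, counted below among injured neuron genes, rose by 3.87 ± 0.28, and bulk tissue does not tell which cells it came from. Tgm1, a crosslinking transglutaminase, read 5.94, 5.80, 5.97 and 6.42 in controls and 10.37, 10.695, 9.86 and 9.84 in lesioned animals. Among controls, only 3 and 4 were well above background for Tgm1. Tgm1 was the single named gene past the threshold in every alternative run for it, and changed by 3.78 ± 0.14.

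Of 20 genes of resting astrocytes tested, 2 were called lower and 0 higher, and the median was -0.36. Glul, glutamine synthetase, read 15.01, 15.11, 15.07 and 15.25 in controls and 14.40, 14.72, 14.38 and 14.02 in lesioned animals, a change of -0.97 ± 0.12 (adjusted p = 0.0188). Aldoc, the brain aldolase, fell by 0.71 ± 0.08, but lesioned animal 1 at 16.69 lay within the controls' 16.30 to 16.86. The glutamate transporter Slc1a2 (-0.26) and the water channel Aqp4 (0.62) were not called. Glul (adjusted p = 0.05) and Aldoc (adjusted p = 0.063) were not past the threshold in limma with sex as a covariate, and Gfap, Vim, Tgm1, Cd44 and Tubb6 were.

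**Figure D2:**
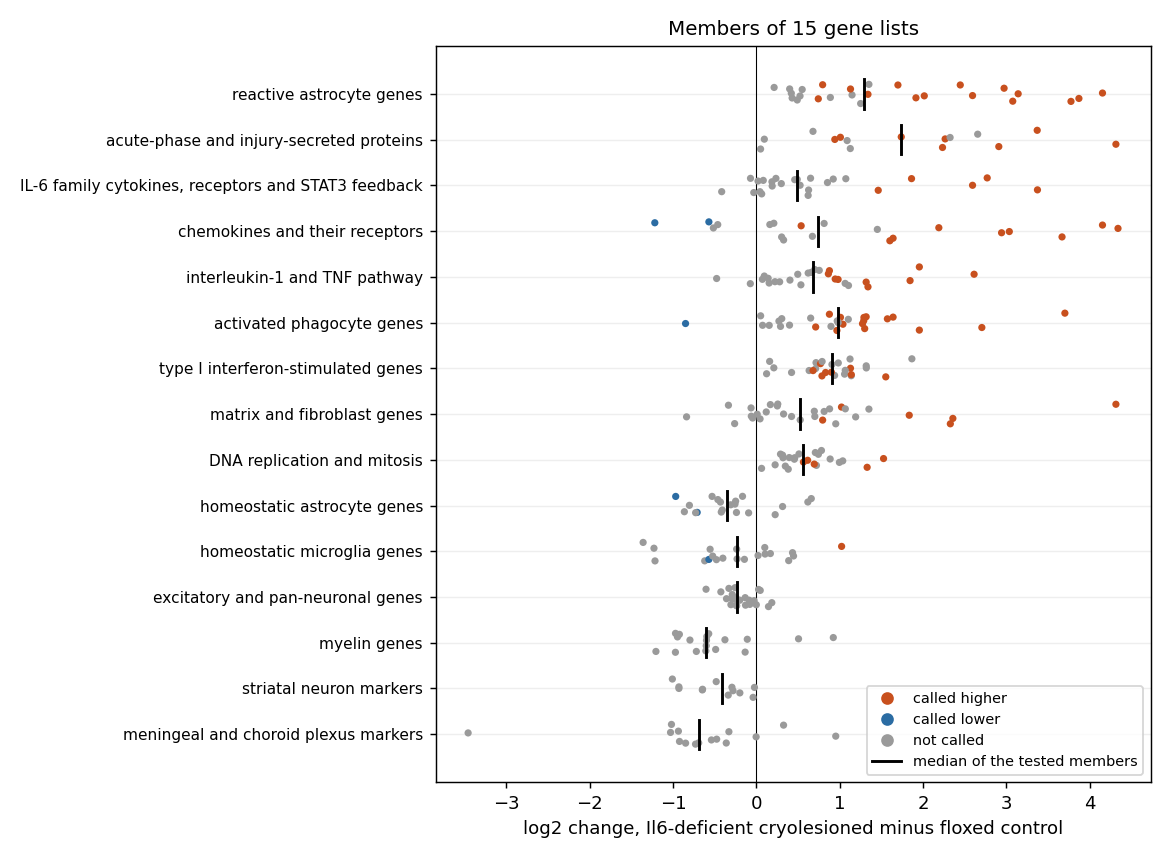
Log2 change between lesioned Il6-deficient animals and floxed controls (horizontal axis) of each tested member of 15 gene lists, with members called higher in orange, called lower in blue and not called in grey, spread vertically at random. The black line is the list median, from 1.74 for acute-phase proteins and 1.30 for reactive astrocyte genes to -0.69 for meningeal and choroid plexus markers.

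Activated phagocyte genes also rose, with 15 of 28 called higher, 1 lower and a median of 0.98. Galectin-3 (Lgals3), secreted by activated microglia and macrophages, read 7.11, 6.76, 7.34 and 7.26 in controls and 9.77, 9.92, 9.29 and 10.14 in lesioned animals, a change of 2.71 ± 0.23. Controls and lesioned animals did not meet. Heme oxygenase Hmox1 rose by 3.70 ± 0.42, the LPS co-receptor Cd14 by 1.96 ± 0.23 and the Fc receptors Fcgr2b and Fcgr1 by 1.30 and 0.97. Apoe, a lipid carrier made by astrocytes as well as phagocytes, was the fall of this list at -0.85 ± 0.08, with levels that overlapped. Outside the list, the inhibitory myeloid receptor Lilrb4a rose by 3.07 ± 0.25, and among controls it was well above background in controls 3 and 4 alone. Hmox1 was called in 4 of 8 fits with 1 array left out and Lilrb4a in 7.

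Among resting microglia genes, 1 of 20 was called higher and 1 lower, and the median was -0.23. P2ry12, the purinergic receptor of surveying microglia, read 8.97, 9.49, 8.82 and 8.77 in controls and 7.57, 7.32, 8.18 and 7.47 in lesioned animals. The levels did not overlap, yet the change of -1.36 ± 0.31 missed the threshold (adjusted p = 0.0962), as did that of Tmem119 (-0.62, adjusted p = 0.133). With sex as a covariate P2ry12 was at -1.95 and past the threshold (limma adjusted p = 0.0437). Fcrls, an Fc receptor-like gene of microglia, rose by 1.02 ± 0.08 in this list. Csf1r, the growth factor receptor microglia depend on, was at -0.23 ± 0.09 and was not called.

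Cx3cr1, the microglial receptor for fractalkine, was lower in both Il6-deficient groups. It read 11.76, 12.07, 12.15 and 11.82 in floxed controls and 11.52, 11.30, 11.31 and 11.66 in lesioned Il6-deficient animals. In Il6-deficient controls it read 11.01, 10.68, 10.84 and 11.05, and in lesioned floxed animals 12.18, 12.14, 12.19 and 12.48. Both Il6-deficient groups thus lay below both floxed groups, with no overlap. The change in the comparison was -0.57 ± 0.10 (adjusted p = 0.0486), a call made in 0 of 8 fits with 1 array left out and not with sex as a covariate (adjusted p = 0.0739). Why the Il6-deficient groups read lower was not tested. For genotype after lesion Cx3cr1 was at -0.85 ± 0.10 with an unadjusted p of 5.27e-05 and an adjusted p of 0.563.

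Interferon-stimulated genes were all above zero: 8 of 26 were called higher, 0 lower, and the median was 0.90. Isg15, a ubiquitin-like protein, read 9.27, 9.23, 10.12 and 9.52 in controls and 10.32, 11.88, 10.84 and 11.43 in lesioned animals. Control 3 came close to lesioned animal 1 without overlap, and the change was 1.55 ± 0.26 (adjusted p = 0.0458), called in 1 of 8 fits with 1 array left out. Oas1a, an RNA sensor, rose by 0.83 ± 0.11 and the immunoproteasome subunit Psmb8 by 0.90 ± 0.11. Ifit1 (0.71, adjusted p = 0.136) and Ifit3 (1.06, adjusted p = 0.0864) were not called.

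In the interleukin-1 and TNF pathway 9 of 26 members were called higher and 0 lower, with a median of 0.68. They included receptors and the alarmin Il33, but not Il1b or Tnf. Il1r1 rose by 0.98 ± 0.10, the toll-like receptor Tlr2 by 1.32 ± 0.13 and Tnfaip2 by 0.88 ± 0.09. Il1b read 6.38, 6.09, 5.99 and 6.39 in controls and 7.52, 7.26, 6.82 and 6.88 in lesioned animals, which did not overlap, but its change of 0.75 ± 0.18 was not called (adjusted p = 0.106). Tnf overlapped at 7.20 to 7.63 and 7.29 to 7.52, with a change of -0.07 ± 0.12 (adjusted p = 0.803).

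DNA replication genes were all above zero, with 5 of 23 called higher and a median of 0.56, which was 0.61 on the direct arrays and 0.06 in the indirect estimate. The replicative helicase subunit Mcm3 read 8.15, 8.08, 8.39 and 8.42 in controls and 9.39, 9.99, 9.99 and 9.96 in lesioned animals. Lesioned animal 1 stood below the other lesioned animals but above every control, and Mcm3 rose by 1.53 ± 0.10 (adjusted p = 0.0025). Mcm6 rose by 1.33 ± 0.17 and cyclin Ccnd1 by 0.69 ± 0.08. The proliferation marker Mki67 gave 1.62 and 1.11 on the direct arrays and 0.05 in the indirect estimate, and was not called.

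Cell death and matrix genes gave smaller lists of calls. The death receptor Fas rose by 1.24 ± 0.10 and the inflammasome adaptor Pycard by 1.39 ± 0.14, among 3 of 26 cell death genes called higher. In the matrix list 6 of 29 were called higher, among them Tgfbi (2.36 ± 0.26), the glycoprotein Tnc (0.80 ± 0.13) and the collagen chaperone Serpinh1 (1.02 ± 0.09). Among controls, Tnc was well above background in control 4 alone. The fibrillar collagens Col1a1 and Col1a2 were at -0.06 and -0.34 and were not called.

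The largest called fall of a named gene was that of Frzb. This secreted Wnt antagonist read 9.002, 8.93, 9.44 and 8.88 in controls and 7.58, 7.20, 7.99 and 6.99 in lesioned animals, a change of -1.79 ± 0.16 (adjusted p = 0.0074). Every lesioned animal lay below every control. The sarcomere gene Tcap fell by 1.41 ± 0.19, Cadps2, which primes dense-core vesicles for release, by 1.35 ± 0.20, Fzd10os by 1.27 ± 0.10 and the tetraspanin Tspan11 by 1.21 ± 0.13. Prelp, a leucine-rich matrix proteoglycan, fell by 1.38 ± 0.20, the TGF-β family member Gdf10 by 1.14 ± 0.15 and Myoc by 1.24 ± 0.17. Mfge8, an astrocyte-secreted bridge between phosphatidylserine and phagocytes, read 14.91, 14.99, 14.99 and 14.93 in controls and 13.99, 14.03, 13.995 and 13.69 in lesioned animals. Its controls spanned 14.91 to 14.99, and it fell by 1.10 ± 0.10 (adjusted p = 0.00843). With sex as a covariate Frzb, Gdf10 and Mfge8 stayed past the threshold, as did Fzd10os, and Prelp, Myoc, Tcap, Cadps2 and Tspan11 did not.

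Cartpt, a neuropeptide precursor, read 10.34, 9.23, 9.85 and 9.42 in controls and 8.67, 9.20, 8.72 and 8.35 in lesioned animals, a change of -1.21 ± 0.16 (adjusted p = 0.0236). Lesioned animal 2 almost met control 2. The kinase Camkk2, at -1.17 ± 0.17, was called although lesioned animal 2 (14.50) lay above control 2 (14.36). The perineuronal net proteoglycan Bcan fell by 0.98 ± 0.14 and the vascular progenitor antigen Cd34 by 0.97 ± 0.12. Camkk2 and Bcan were each called in 2 of 8 fits with 1 array left out, Cartpt in 5 and Cd34 in 6. None of these 4 genes was past the threshold with sex as a covariate. Their changes were then -0.94 ± 0.19 for Camkk2, -0.97 ± 0.20 for Bcan, -1.05 ± 0.20 for Cartpt and -0.86 ± 0.15 for Cd34.

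Neuronal and myelin genes gave no calls. Of all features 1.36% were called, so 0 calls in lists of this size, here and below, do not set them apart. Of 23 excitatory and pan-neuronal genes 0 were called in limma (4 had an unadjusted p under 0.05). All 23 overlapped in level, as did most features, of which 6.49% lay all above and 4.7% all below. The median of -0.24 was -0.37 on the direct arrays and 0.39 in the indirect estimate. The vesicular glutamate transporter Slc17a7 read 10.17 to 11.16 in controls and 10.38 to 11.58 in lesioned animals. Of 18 myelin genes 0 were called in limma (8 had an unadjusted p under 0.05), with a median of -0.60. The share of all features at an unadjusted p under 0.05 in the comparison is not given here. Such counts, here and below, therefore cannot be set beside it. Of 14 oligodendrocyte precursor genes 0 were called in limma (3 had an unadjusted p under 0.05), and Gpr17, a receptor of committed precursors, missed the threshold at -1.24 ± 0.24 (adjusted p = 0.0687).

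Markers of cells and regions outside cortical parenchyma moved in several ways. Of 18 monocyte and border macrophage markers 1 was called higher, Plac8 (0.89 ± 0.14), and their summed intensity was 7192 to 7613 in controls and 7930 to 11643 in lesioned animals. Of 6 neutrophil markers tested 1 was called, S100a9 (1.96 ± 0.27), while S100a8, its partner in calprotectin, gave 1.76 ± 0.31 with an adjusted p of 0.0536. Retnlg, Ngp, Ltf and Mmp9 did not reach the filter on dim probes. Of 8 lymphocyte and 6 red cell markers tested 0 were called in limma, and 0 had an unadjusted p under 0.05. Of 24 endothelial and mural genes 1 was called higher, the smooth muscle gene Tagln (1.83 ± 0.21), and 1 lower, Cd34. The part of these cells in the results was not tested.

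Striatal neuron markers varied among the lesioned animals. The peptide precursor Tac1 read 13.29, 12.31, 12.13 and 12.67 in controls, 10.38 and 9.75 in lesioned animals 1 and 2 and 12.83 and 12.82 in animals 3 and 4. Its direct ratios were 0.70 and 0.16 and its indirect estimate -5.00. Over 12 striatal markers the median was 0.36 direct and -3.06 indirect, with 0 called in limma (0 with an unadjusted p under 0.05), and their summed intensity was 58734 to 106914 in controls and 28739 to 98947 in lesioned animals. The choroid plexus transcript Ttr read 13.999, 8.36, 12.90 and 9.73 in controls and 6.27, 6.99, 8.96 and 8.47 in lesioned animals, an overlap with a change of -3.46 ± 0.94 (adjusted p = 0.133). The 15 meningeal and choroid plexus markers, with a median of -0.69, gave 0 calls in limma and 8 unadjusted p under 0.05. The part of these regions in the results was not tested.

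Several lists gave few or no calls. Each list here with at least 1 call lay above the 1.36% called among all features, which 1 call in lists this small already does. Of 18 complement genes 3 were called higher, C4b, C1ra and the anaphylatoxin receptor C5ar1 (1.42), and C2 was called lower (-0.63). Antigen presentation gave 1 call among 19 genes, Psmb8, and vascular activation 1 among 20, Ch25h. Heat shock genes gave 1 of 16, the small chaperone Hspb8 (0.74), with a median of -0.01 direct and 0.80 indirect. Cholesterol and lipid genes gave 2 of 24, among them Ch25h. Metallothionein and oxidative stress genes gave 3 of 28, Hmox1 and the NADPH oxidase subunits Cyba and Ncf4. Of 14 glucocorticoid-induced genes Lcn2 was called higher and Tsc22d3, also known as GILZ, lower (-0.66). Tubb6 was the 1 call among 18 injured neuron genes and Bcan the 1 among 10 perineuronal net genes. No gene was called in limma among 24 activity-regulated, 21 inhibitory neuron, 15 clock, 30 ribosomal protein and 23 oxidative phosphorylation genes, of which 14, 4, 5, 5 and 4 had an unadjusted p under 0.05. The share of all features at that level is not given here. The called genes of these lists are named after their values were seen.

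**Figure D3:**
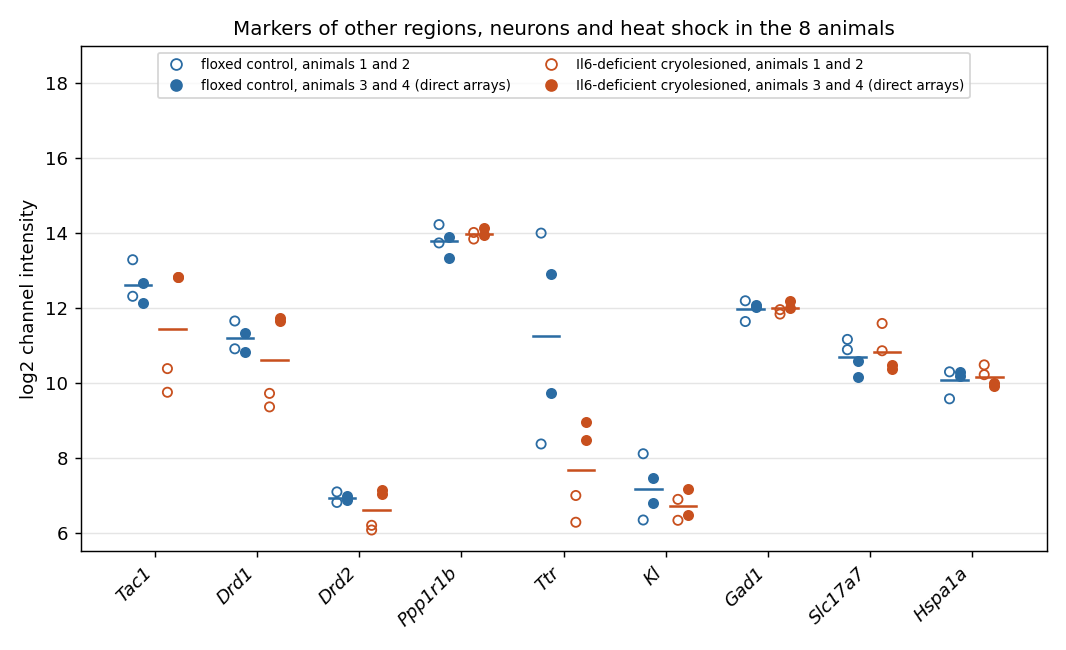
Log2 channel intensity (vertical axis) of striatal (Tac1, Drd1, Drd2, Ppp1r1b), choroid plexus (Ttr, Kl), neuronal (Gad1, Slc17a7) and heat shock (Hspa1a) transcripts in floxed controls (blue) and lesioned Il6-deficient animals (orange); lines are means of 4 animals. Lesioned animals 1 and 2 (open) are low for Tac1, at 10.38 and 9.75, against 12.83 and 12.82 in animals 3 and 4 (filled), and Ttr spans 8.36 to 13.999 among the controls.

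The direct and the indirect estimate rest on different animals of both groups. Across all 29362 features they correlated at r = 0.497 (Spearman 0.388), a description over genes, which are not independent, and 18558 features had the same sign. Among the 400 called features, which were chosen on both, r was 0.943 and the direct change was the smaller in size in 280, with a median ratio of direct to indirect of 0.856. In the limma fit with a term for direct minus indirect 0 features were called, and 1992 had an unadjusted p under 0.05, 44 of them among the 400. The named genes with the smallest p for a larger indirect rise included Ccl4 (2.55 direct, 4.48 indirect) and the oxysterol enzyme Ch25h (2.34 and 3.95). For the Nogo receptor Rtn4r the estimates had opposite signs (-0.71 and 0.49), as for Tmem108 (-0.54 and 0.83). Hspa1a, an inducible heat shock gene, gave -0.20 and -0.36 on the direct arrays and 2.98 in the indirect estimate, which runs through lesioned floxed animals at 9.70 to 13.59.

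**Figure D4:**
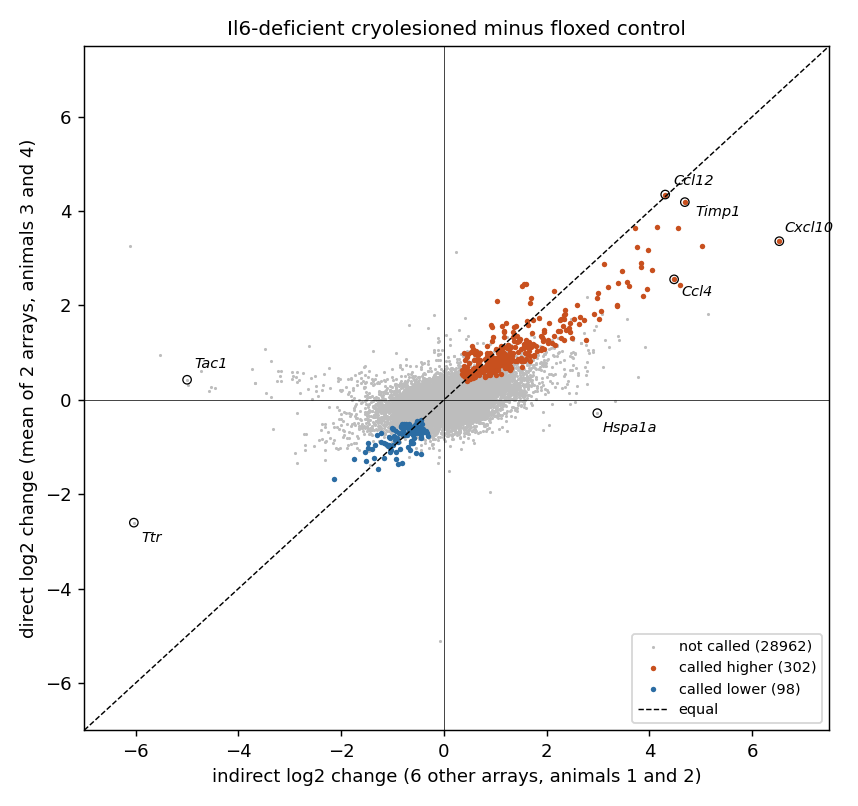
Log2 change of lesioned Il6-deficient animals over floxed controls in the indirect estimate of 6 arrays (horizontal axis) and as the mean of the 2 direct arrays (vertical axis) for each tested feature; 302 features called higher are orange, 98 called lower blue, the rest grey, and the dashed line marks equality. Called rises mostly lie below the line, as for Ccl4 (4.48 indirect, 2.55 direct), and Tac1 lies far to the left at -5.00.

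The comparison is the sum of cryolesion in floxed animals and of genotype after lesion, which share animals with it. For Ccl12 those parts were 4.42 and -0.08, for Timp1 4.88 and -0.57, for Gfap 3.50 and -0.36, and for Lcn2 2.57 and -0.30. Stat3 gave 1.38 and 0.08, Osmr 2.69 and -0.10, and Tgm1 4.00 and -0.23. Frzb gave -1.87 and 0.08, Cxcl12 -1.57 and 0.35, Mfge8 -1.28 and 0.18, and Cartpt -0.52 and -0.69. Lgals3 gave 3.56 and -0.86, Ccl4 3.82 and -0.79, and Camkk2 -1.68 and 0.51. These genes are examples chosen by no rule. For genotype after lesion 0 features were called in limma, and 2529 of 29362 had an unadjusted p under 0.05.

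Of the 76 genes described by the rule of choice and called, 44 were past the threshold with sex as a covariate. The covariate moved the log2 change of the 76 genes by a median of 0.12 in size and by 0.79 at most. Those not past it included Isg15, Psmb8, Tnfaip2, Cd14, Ccnd1, Mcm5, Tgfbi, Tnc, Plac8 and S100a9 (limma adjusted p of 0.0547 to 0.101). With the covariate the changes of Isg15, Cd14, Tgfbi, Tnc and S100a9 were larger, as for Isg15 at 1.55 without and 1.77 with it. Those of Psmb8, Tnfaip2, Ccnd1, Mcm5 and Plac8 were smaller, as for Plac8 at 0.89 and 0.72. The covariate also uses up 1 of the 4 residual degrees of freedom.

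How many features passed depended on single arrays. All 8 arrays gave 400 calls, 16 were left without direct array 2 and 1256 without direct array 1. Leaving out control-side array 1, lesion-side array 2 or floxed-lesion-side array 1 gave 75, 66 and 98 calls, and floxed-lesion-side array 2 gave 262. Leaving out control-side array 2 or lesion-side array 1 gave 450 and 296. The direct arrays alone called 38 features higher and 1 lower, an unnamed probe, and the 6 other arrays alone called 3, Ch25h, Ccl4 and Tgm1, named after their values were seen. Of the 400, 14 features were called in each of the 8 left-out fits, and all were rises: Ptx3, Angptl4, Timp1, Ccl7, Tgm1, Cebpd, Ccl12, Ccl2, Lcn2, Vim, Pdpn, Cd72, Gfap and Ctsc.

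**Figure D5:**
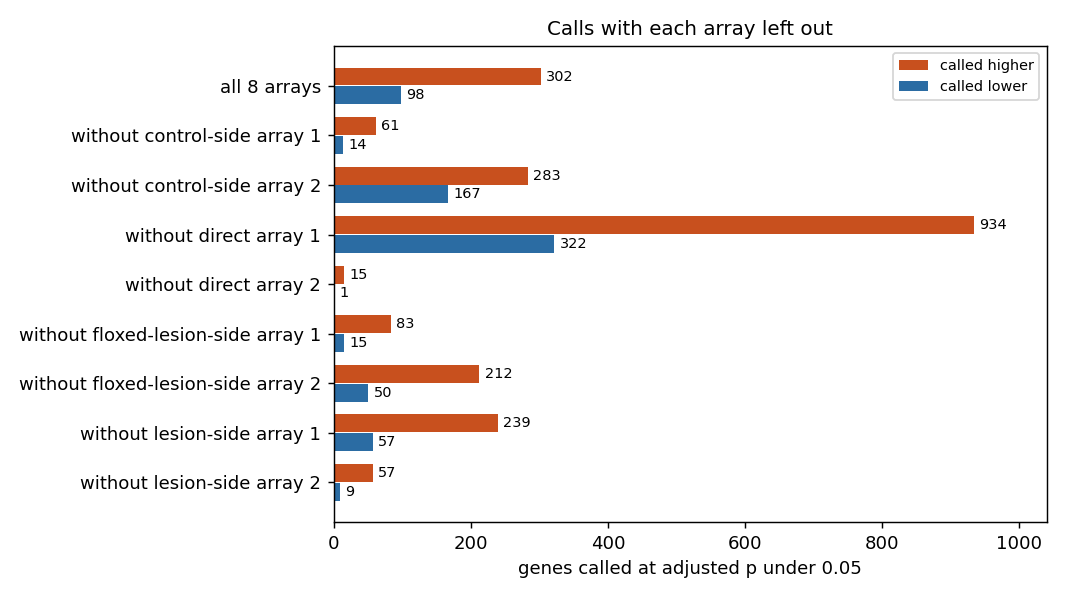
Number of features called at an adjusted p under 0.05 (horizontal axis, from 0) with all 8 arrays and with each array left out, called higher in orange and called lower in blue. Calls were 302 and 98 with all arrays, 15 and 1 without direct array 2, and 934 and 322 without direct array 1.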

How the data were processed

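Total RNA of 16 mice was hybridised on 8 Agilent 2-colour arrays. Per the file headers, spots were read with Agilent Feature Extraction 10.7.3.1. The authors deposited spot intensity values, used here as medians with local background. The deposited log10 ratio of Cy5 over Cy3 was used only for a comparison with the authors' value table. Scanner-processed intensity served as an alternative in the fit, as did that value table. That table was deposited as log2 ratios, and its background correction, scale and centring are not stated. Per array it correlated at r = 0.967 to 0.977 with the loess-normalized ratios computed here, with slopes of 1.12 to 1.26, and at r = 0.684 to 0.862 with the scanner's log10 ratio. Its column medians were -0.0045 to 0.0050.

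Background was corrected with normexp (offset 50) and each array normalized by loess. Probes well above background in at least 4 of 16 channels were kept, with the brightest per gene. Log2 ratios of all 8 arrays were fitted with limma 3.58.1 (R 4.3.3), with a dye term and 3 group differences, and p-values were adjusted by the Benjamini-Hochberg method (0.05) over 29362 features. Of 56605 probes, 32994 carry a gene name. Levels are log2 channel intensities after Aquantile. Channel medians were 111 to 144 for Cy5 and 45 to 59 for Cy3, and 0 spots were saturated. Animal numbers did not pair the samples across groups. The fit was tested on simulated data with 200 changed genes. Members and gene lists were chosen with earlier results of these data known. Genes were named by a rule: the 12 largest called rises and falls, the first 3 genes of each list, up to 3 further called members per list, 4 genes per direction for direct minus indirect, and Il6 and sex-linked genes as checks. Figures were drawn with matplotlib 3.10.9 (python 3.11.15). Some genes are not reported here.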

Additional observations from a re-analysis of the deposited data

Results flagged for a closer look

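In 14 of 352 groups of 4 values tested, 1 animal lay further from the others than Dixon's 95% critical value allows. Chance gives about 1 in 20 such groups. Among lesioned Il6-deficient animals, animal 1 was low for Mcm3 (9.389, the others 9.96 to 9.994), animal 2 was high for Acan (8.105) and low for Tmem119 (8.714), animal 3 was high for Tcap (9.257), and animal 4 was low for Cd34 (11.548) and Mfge8 (13.691). Mcm3, Tcap, Cd34 and Mfge8 were called, and their groups did not overlap with these animals included. Among floxed controls, animal 2 was low for Xist (5.996, the others 7.494 to 7.572) and Hspa1a (9.572), high for Cyba (10.685), and low in the summed monocyte and border macrophage markers (7192). Control 3 was high for H2-Aa (7.392, the others 6.102 to 6.187) and Slc47a1 (7.392). Control 4 was low for Alas2 (7.069) and high in the summed intensity of myelin genes (217500, the others 179892 to 185162).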

How the results depend on the processing

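The counts of 302 higher, 98 lower and 400 in all moved by over 1.5 times in several alternatives. Median centring in place of loess gave 102, 62 and 164. Scanner-processed signals gave 55 lower, and the values tabulated by the authors gave 465 higher. The direct arrays alone gave 38, 1 and 39, the 6 other arrays 3, 0 and 3 (2887 higher and 1893 lower at an unadjusted p under 0.05), and sex as a covariate 114, 61 and 175. Fitting all 16 channels separately gave 1261, 894 and 2155, and the 8 animals alone without a block 668, 275 and 943. With the animal number as a replicate block those 8 animals gave 343, 56 and 399. Numbers 1 to 4 did not pair the samples (r = -0.04, 0.21, -0.25 and -0.05). With each array left out in turn, calls ranged from 15 to 934 higher, 1 to 322 lower and 16 to 1256 in all, and direct minus indirect gave 0 to 10 calls. The cause was not tested. Offset 16, filters on dim probes, the second probe, no dye term and removal of sex-chromosome genes kept all 3 counts within 1.5 times. The 76 called named genes kept their sign in each alternative run for them. The filter on all 16 channels left some of them untested, among them Tgm1, which alone was past the threshold in each alternative run for it. Of 88 named genes not called, 42 changed sign and 27 passed the threshold in at least 1 alternative. With 4 residual degrees of freedom and a median standard error of 0.107, small changes were not detectable; Il6 was not well above background in either group.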
